A study of Homo sapiens with 18 samples.

Results

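Cells with a knockout of IMPDH2 that were grown with 400 µM guanosine (KO with guanosine, 3 libraries) were compared with the same knockout grown without it (KO, 3 libraries). These 6 of the 18 libraries of the series were chosen by their labels alone. The cells were MDA-MB-231, an established triple-negative breast cancer line, and messenger RNA was sequenced. IMPDH2 is inosine monophosphate dehydrogenase, and the series tied it to the DNA damage response and to PARP1. Besides the knockout with and without guanosine, the groups compared here were the knockout into which IMPDH2 had been reintroduced with no localisation signal named (KO given IMPDH2, 3 libraries) and unedited cells (WT, 3 libraries), neither with guanosine. The remaining libraries were of the knockout given nuclear or cytosolic IMPDH2, also without guanosine. They were not compared, but entered the low-count filter, the scaling and the shared spread of the edgeR fit. The labels give no length of treatment, do not say if the knockout is 1 clone or a pool or if replicates were grown apart, and list no unedited cells with guanosine. Every p therefore measures the spread between these libraries, which may be technical, and all results with guanosine apply to knockout cells. In the cell line field the final number changes between samples, but the protocol for growth gives MDA-MB-231 for each of them, and 1 line was assumed.

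IMPDH converts inosine monophosphate to xanthosine monophosphate, which GMP synthetase turns into GMP, and this is the committed step of guanine nucleotide synthesis. Cells can bypass it by taking up guanosine through equilibrative nucleoside transporters. Purine nucleoside phosphorylase then cleaves guanosine to guanine, and HPRT joins guanine to phosphoribosyl pyrophosphate to give GMP. Guanine nucleotides feed RNA and DNA synthesis, GTPases and ribosome assembly in the nucleolus.

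Summed to genes, the libraries of the series held 45865079 to 63276484 estimated counts each. Levels are in CPM, counts per 1000000 counts of the library after TMM scaling, and a ± beside a level is an SD over n = 3 libraries. Differences were tested with the quasi-likelihood test of edgeR on 19252 genes, and a gene counted as higher or lower when its p after Benjamini-Hochberg adjustment, written here as the edgeR adjusted p, was below 0.05. Of the markers of mesenchymal breast cancer lines, 9 of 10 reached 1 TPM (transcripts per 1000000, corrected for length) in a library, with sums of 4288 to 4382 TPM with guanosine and 4005 to 4104 TPM in KO. Luminal markers summed to 459 to 491 TPM with guanosine and 338 to 375 TPM in KO, led by KRT8, KRT18 and KRT19, while ESR1, PGR, FOXA1 and CDH1 were at most 0.0802 TPM in any library and below the filter on low counts. Blood and endothelial markers summed to 4.34 to 4.82 TPM with guanosine and 7.22 to 9.38 TPM in KO, and 3 of the 12 were at 0.

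With guanosine 5256 genes rose and 5626 fell, which is 27.3% and 29.2% of the genes tested. At least 2-fold changes were seen in 483 genes that rose (2.51%) and 998 that fell (5.18%). A separate fit of coding genes alone gave 314 and 477. Over all genes tested, a test against a log2 fold change of 1 gave 140 and 253. For 5695 genes (29.6%) all 3 libraries with guanosine lay above all 3 of KO, and for 6314 genes (32.8%) all lay below. In all 56.5% of the genes were called. The counts of the lists that follow are to be read beside these shares and beside those of comparable genes. Of the coding genes 34.2% rose and 30.7% fell. Of the 3851 genes with the highest average level 1959 rose and 1052 fell. Whether more genes rose or fell depended on the scaling: DESeq2 size factors gave 5510 higher and 5339 lower genes. An offset for average transcript length in the fit gave 3812 higher and 4204 lower genes. List counts with the length offset are to be set against these lower totals. Members outside the named-gene rule, such as the exceptions to a list's main direction, were named after their values were seen. The median log2 fold change over all genes was -0.023 and over the 14000 coding genes 0.016.

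**Figure D1:**
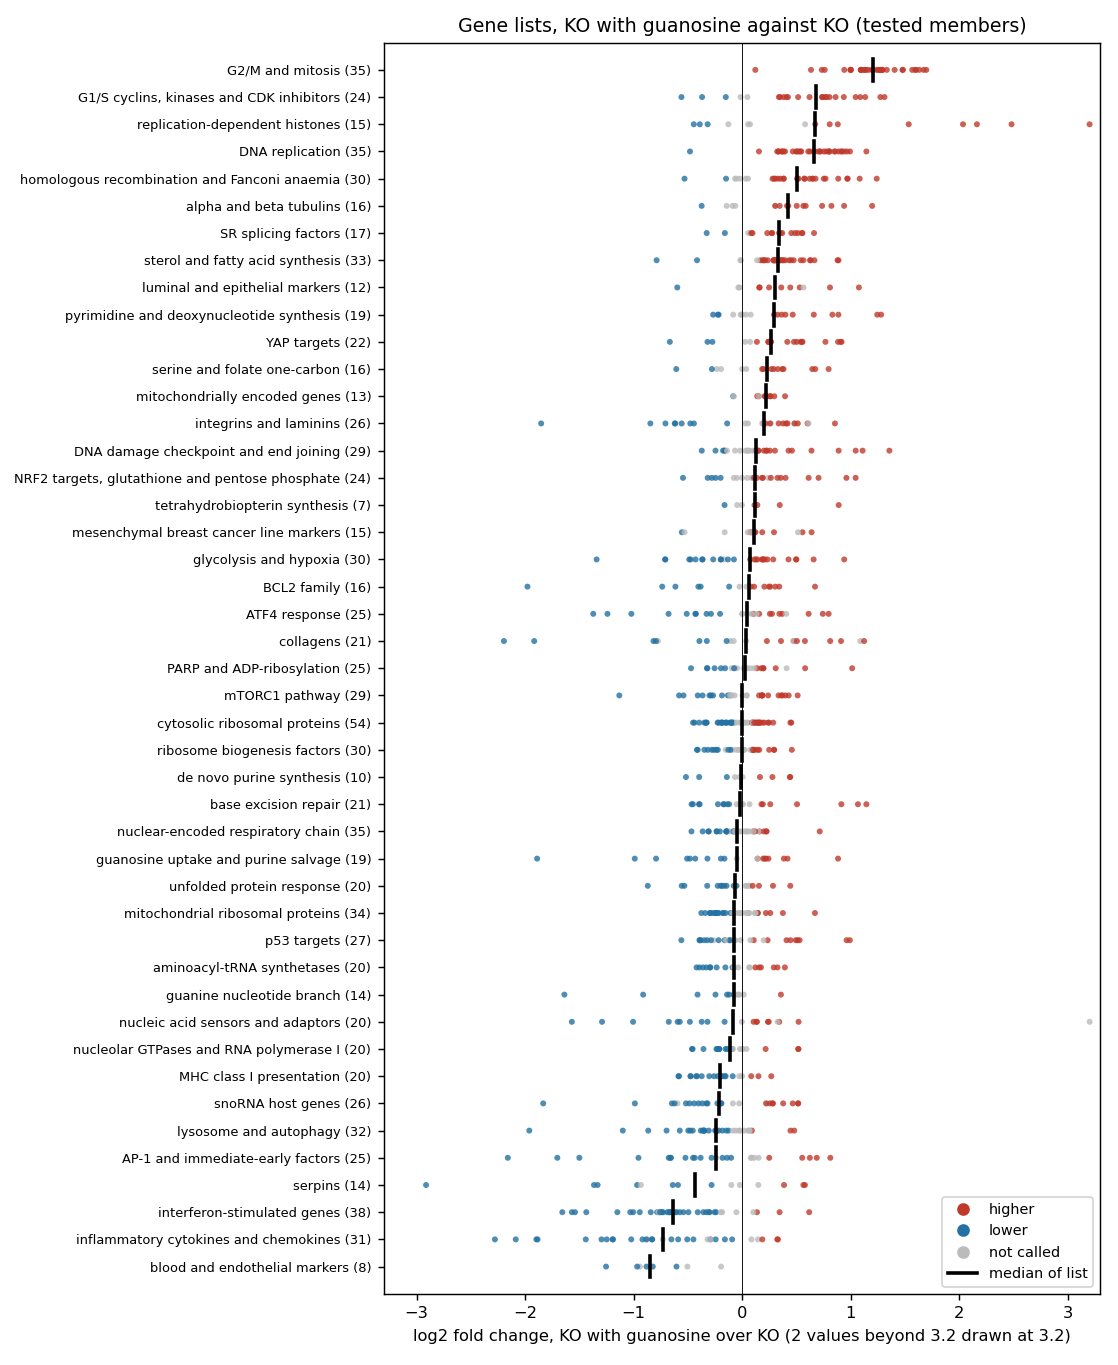
Log2 fold change of KO with guanosine over KO (horizontal axis) for every tested member of 45 gene lists (rows, number of tested members in brackets), coloured by the edgeR call, with the list median as a black bar. G2/M genes lay highest with a median of 1.21, and inflammatory (-0.73) and interferon-stimulated genes (-0.64) were among the lists with the lowest medians.

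IMPDH2 itself, the targeted gene, was far below WT in the knockout with and without guanosine, and it was lower with guanosine. IMPDH2 had 22.0, 22.2 and 22.1 CPM with guanosine, against 41.4, 42.3 and 41.2 CPM in KO, without overlap (log2 fold change -0.91 ± 0.038 SE, edgeR adjusted p = 8.06e-13). KO cells given back IMPDH2 had 532 ± 10.4 CPM and WT cells 319 ± 0.557 CPM. IMPDH1, the paralogous enzyme, had 44.7, 48.0 and 45.2 CPM with guanosine, against 51.1, 50.5 and 50.4 CPM in KO (log2 fold change -0.14 ± 0.032 SE, edgeR adjusted p = 0.00122). With an offset for average transcript length in the fit the call of IMPDH1 was lost (log2 fold change -0.069, edgeR adjusted p = 0.415).

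The list of the guanine nucleotide branch holds 14 genes, among them ADSS1 and ADSS2 of the arm towards AMP. Of the 14, 1 rose and 7 fell, beside 34.2% and 30.7% of the coding genes, and the 7 include IMPDH2. The gene that rose was GMPS, GMP synthetase, the enzyme just downstream of IMPDH. GMPS had 108, 106 and 108 CPM with guanosine, against 88.0, 80.8 and 82.9 CPM in KO (log2 fold change 0.36 ± 0.033 SE, edgeR adjusted p = 3.88e-08), so every library with guanosine lay above every KO library. KO cells given IMPDH2 had 107 ± 2.51 CPM and WT 109 ± 2.71 CPM, and neither difference from the cells with guanosine passed the test (edgeR adjusted p = 0.962 and 0.543). NME1 and NME7, nucleoside diphosphate kinase family members, fell, with log2 fold changes of -0.25 (edgeR adjusted p = 4.23e-06) and -0.41 (edgeR adjusted p = 6.79e-08). NME1 and NME2 are near-identical neighbours whose reads could have been split between them, and NME2 did not pass at -0.070 (edgeR adjusted p = 0.0933), although it did without KO replicate 2 (0.0182), without replicate 2 with guanosine (0.0421) or with the length offset (0.0147).

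ADSS1, the muscle-type enzyme that leads from inosine monophosphate towards AMP, had the largest change of the list, at a low level. It had 2.04, 1.71 and 1.74 CPM with guanosine, against 5.23, 5.77 and 6.08 CPM in KO (log2 fold change -1.64 ± 0.095 SE, edgeR adjusted p = 8.03e-11). ADSS2, the widely expressed counterpart, did not pass the test at -0.026 on the log2 scale. GUK1, guanylate kinase, had -0.053, GMPR, which returns GMP to inosine monophosphate, -0.035, NME3 0.015 and NME4 -0.073, and none of these 4 passed. The falls of GMPR2 (-0.077, edgeR adjusted p = 0.0443) and NME6 (-0.12, edgeR adjusted p = 0.0295) lay near the threshold. With DESeq2 size factors neither passed (edgeR adjusted p = 0.127 for GMPR2 and 0.0521 for NME6), and each also lost its call without single libraries of either group (0.11 to 0.275 and 0.0531 to 0.0867). GMPR2 turned to 0.072 (edgeR adjusted p = 0.769) with the length offset.

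Among 19 tested genes of nucleoside uptake and purine salvage 8 rose and 9 fell, with a median log2 fold change of -0.050. SLC28A1, SLC28A2 and GDA, encoding 2 concentrative nucleoside transporters and guanine deaminase, were below the filter. Changes were small in the enzymes that lead from guanosine to GMP. HPRT1 had 55.2, 57.0 and 55.2 CPM with guanosine, against 50.5, 50.4 and 50.9 CPM in KO (log2 fold change 0.14 ± 0.044 SE, edgeR adjusted p = 0.0101), without overlap, and lost the call with the length offset (edgeR adjusted p = 0.0653). PNP, purine nucleoside phosphorylase, had 137, 144 and 144 CPM with guanosine, against 149, 146 and 145 CPM in KO, and this did not pass (log2 fold change -0.050 ± 0.026 SE, edgeR adjusted p = 0.11) except with the length offset (edgeR adjusted p = 0.0168). SLC29A1, the main equilibrative nucleoside transporter, was higher in each library, with 193, 196 and 200.4 CPM with guanosine, against 170.2, 159 and 169 CPM in KO (log2 fold change 0.24 ± 0.028 SE, edgeR adjusted p = 7.31e-07). SLC29A2, of the same family, rose by 0.21 on the log2 scale (edgeR adjusted p = 0.00256).

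The largest rise in the group was that of NT5E, CD73, the ectoenzyme that dephosphorylates extracellular AMP to adenosine. NT5E had 603, 589 and 579.8 CPM with guanosine, against 324, 319 and 318 CPM in KO (log2 fold change 0.88 ± 0.032 SE, edgeR adjusted p = 1.18e-13). The groups stood far apart, and the level with guanosine was still below the 1149 ± 32.5 CPM of WT. Kinases of other nucleosides rose as well: DCK, deoxycytidine kinase, by 0.42 (edgeR adjusted p = 1.24e-08) and ADK, adenosine kinase, by 0.22 (edgeR adjusted p = 2.9e-06). SAMHD1, which breaks down deoxynucleoside triphosphates, rose by 0.38 and NT5C2, a cytosolic nucleotidase acting on IMP and GMP, by 0.19. NT5C, another nucleotidase, had a log2 fold change of 0.14 and did not pass (edgeR adjusted p = 0.113), but it did without KO replicate 3 (edgeR adjusted p = 0.0437) and with the length offset (edgeR adjusted p = 0.0222).

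Genes that fell included APRT, which salvages adenine, at -0.43 (edgeR adjusted p = 5.22e-10), ADA, adenosine deaminase, at -0.79, and SLC28A3, a concentrative transporter, at -1.89. SLC28A3 was low throughout, with 0.509, 0.263 and 0.344 CPM with guanosine, against 1.44, 1.32 and 1.38 CPM in KO. XDH, which oxidises xanthine to uric acid, was at -0.99 and lost its call with the length offset (edgeR adjusted p = 0.171). SLC29A3 (-0.51), LACC1 (-0.32), NT5C3A (-0.16), DGUOK, mitochondrial deoxyguanosine kinase (-0.20), and SLC29A4 (-0.48) fell too, and of these DGUOK (edgeR adjusted p = 0.264) and SLC29A4 (edgeR adjusted p = 0.783) lost the call with the length offset.

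**Figure D2:**
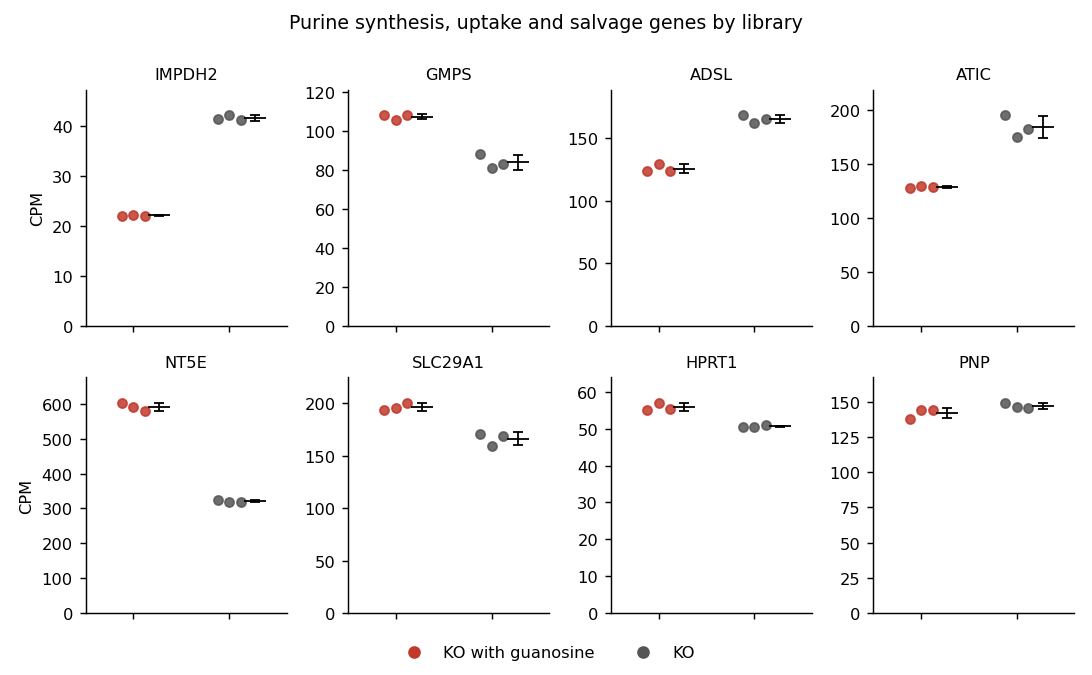
CPM of 8 purine genes in each library (points, KO with guanosine on the left and KO on the right of each panel, vertical axes from 0), with the mean ± SD (n = 3) as black bars. IMPDH2, ADSL and ATIC were lower and GMPS, NT5E, SLC29A1 and HPRT1 higher with guanosine without overlap, while PNP lay at 137 to 144 CPM with guanosine and 145 to 149 CPM in KO.

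De novo purine synthesis, which leads to inosine monophosphate upstream of IMPDH, had 4 of 10 genes higher and 3 lower. These lay beside 34.2% and 30.7% of the coding genes. ATIC, the bifunctional enzyme of the final steps, had 128, 130.1 and 129 CPM with guanosine, against 196, 175 and 183 CPM in KO (log2 fold change -0.52 ± 0.036 SE, edgeR adjusted p = 8.37e-10). ADSL, adenylosuccinate lyase, had 123, 129.6 and 124 CPM with guanosine, against 168, 162 and 165 CPM in KO (log2 fold change -0.40 ± 0.029 SE, edgeR adjusted p = 1.6e-09). PRPS2 and PRPSAP1, a synthetase of phosphoribosyl pyrophosphate and its associated protein, rose by 0.44 (edgeR adjusted p = 1.68e-08) and 0.44 (edgeR adjusted p = 1.83e-09). PPAT, which commits phosphoribosyl pyrophosphate to the pathway, rose by 0.28 and PRPS1 by 0.16, PFAS fell by 0.14, and PAICS (0.0036) and GART (-0.067), also of middle steps, did not pass.

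Genes of deoxynucleotide and pyrimidine synthesis were mostly higher: 10 of 19 rose and 3 fell, with a median of 0.29. RRM2, the regulated subunit of ribonucleotide reductase, had 376, 389 and 388 CPM with guanosine, against 161, 161 and 153 CPM in KO (log2 fold change 1.28 ± 0.034 SE, edgeR adjusted p = 2.24e-15). TYMS, thymidylate synthase, had 184, 192 and 184 CPM with guanosine, against 81.0, 75 and 80.4 CPM in KO (log2 fold change 1.24 ± 0.033 SE, edgeR adjusted p = 2.27e-15). In both genes every library with guanosine was more than 2 times as high as any KO library. RRM1, the large subunit of the reductase, rose by 0.89 and TK1, thymidine kinase, by 0.83, whereas the enzymes of pyrimidine ring synthesis CAD (-0.0051) and DHODH (0.00055) did not pass. Of 16 genes of serine and folate one-carbon metabolism 10 rose and 2 fell, with PSAT1, phosphoserine aminotransferase, at 0.80 (edgeR adjusted p = 7.17e-14), SHMT1 at 0.67 and MTHFD2 at 0.38. PHGDH, which catalyses the step before PSAT1, had 0 counts in all 6 libraries, which allows at most 0.0654 CPM per library (3 counts, counting error only), and 65.0 ± 2.03 CPM in WT. Genes were filtered over all 18 libraries, so a tested member of a list can, as here, be absent from both groups compared. Tetrahydrobiopterin synthesis, which starts from GTP, had 4 of 7 genes higher and 1 lower. Its entry enzyme GCH1 was at 0.14 (edgeR adjusted p = 0.0218), a call that was lost without KO replicate 2 or 3 or without replicate 1 with guanosine (edgeR adjusted p = 0.081, 0.0539 and 0.141). Without KO replicate 2 or replicate 1 with guanosine 2 genes of the list were higher. GCHFR, the feedback regulator of GCH1, rose by 0.89 and PCBD1, which recycles the cofactor, by 0.35, while PTS, of the second step, fell by 0.16.

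Cell cycle genes rose together with guanosine. All 35 G2/M and mitosis genes rose, with a median log2 fold change of 1.21, as did 34 of 35 DNA replication genes (median 0.66). The exception among the replication genes was TIPIN, a partner of TIMELESS at the fork, which fell by 0.48 on the log2 scale (edgeR adjusted p = 1.21e-06). In bulk RNA more cells in a cycle phase and more RNA per cell cannot be told apart. CCNA2, cyclin A2, had 125, 123 and 118 CPM with guanosine, against 41.0, 41.3 and 38.7 CPM in KO (log2 fold change 1.59 ± 0.031 SE, edgeR adjusted p = 8.55e-17). FEN1, the flap endonuclease of Okazaki fragment processing, had 246, 249.9 and 252 CPM with guanosine, against 116, 109 and 114 CPM in KO (log2 fold change 1.14 ± 0.027 SE, edgeR adjusted p = 5.3e-16). LIG1, which seals those fragments, rose by 0.91 and CDC45, part of the replicative helicase, by 0.97.

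Regulators of the G1/S transition included both activators and inhibitors among the genes that rose. Of 24 genes 19 rose and 3 fell, with a median of 0.68. SKP2, the F-box protein that targets p27, had 47.2, 49.3 and 48.0 CPM with guanosine, against 20.4, 19.3 and 20.1 CPM in KO (log2 fold change 1.27 ± 0.048 SE, edgeR adjusted p = 2.59e-13). CDKN2C, the CDK4/6 inhibitor p18, had 25.6, 24.9 and 24.4 CPM with guanosine, against 9.81, 10.1 and 10.3 CPM in KO (log2 fold change 1.31 ± 0.044 SE, edgeR adjusted p = 5.18e-14). The groups did not overlap for either gene. CCND1, cyclin D1, rose by 0.62 (edgeR adjusted p = 1.08e-13), TFDP1, the E2F partner, by 0.74 (edgeR adjusted p = 2.41e-14), and CDKN1A, the inhibitor p21, by 0.41 (edgeR adjusted p = 2.05e-06). The 3 genes that fell were CDK4 (-0.37), CDKN1C (-0.56) and RBL2 (-0.15).

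Replication-dependent histones, whose messages lack poly(A) tails, were mostly low: 8 of the 15 tested rose and 3 fell, and 3 more were below the filter. Their summed level overlapped between the groups, at 79.6 to 84.5 CPM with guanosine and 81.9 to 89.3 CPM in KO. H2AC20 had 0.721, 0.995 and 0.732 CPM with guanosine, against 0.144, 0.33 and 0.127 CPM in KO (log2 fold change 2.03 ± 0.36 SE, edgeR adjusted p = 8.5e-05). H2BC5 had 16.2, 16.1 and 14.8 CPM with guanosine, against 18.5, 19.8 and 20.3 CPM in KO and fell (log2 fold change -0.32 ± 0.068 SE, edgeR adjusted p = 0.000564). Histone genes share near-identical sequence, so their values are uncertain. Tubulins, which form the spindle and interphase microtubules, rose in 11 of 16 cases and 1 fell, TUBB3 at -0.37. TUBA1B had 2007 ± 53.1 CPM with guanosine and 875 ± 14.7 CPM in KO and TUBB 3467 ± 34.7 CPM with guanosine and 1809 ± 14.8 CPM in KO, with log2 fold changes of 1.20 and 0.94, and here too reads may be split between close paralogs.

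Promoters of genes on these lists are shown because some of the letters they hold differed between G2/M, replication and interferon-stimulated genes. RefSeq windows of 300 bases, 250 before and 50 after a start site in GRCh38.p14, were searched on both strands, taking the first window listed per gene, and 11242 of the 13992 tested coding genes matched by symbol. Of 27305 windows 15.4% held the cell-cycle homology element (CHR) TTTGAA, 2.31% held TTTCCCGC or TTTGGCGC, letters bound by E2F factors, and 3.65% held the interferon-stimulated response element (ISRE), GAAA, any 2 bases and GAAA. Among the 11242 tested coding genes these shares were 10.1%, 3.66% and 3.05%. The CHR was in 19 of 28 G2/M windows and in 0 of 30 replication windows, and E2F letters were in 15 of 30 replication windows and in 1 of 28 G2/M windows. The ISRE was in 18 of 31 windows of interferon-stimulated genes and in 0 of the G2/M and replication windows. The letters CCAAT, also searched, were in 21 of 28 G2/M, 18 of 30 replication and 10 of 31 interferon-stimulated windows. They were in 36.6% of the windows of tested coding genes. In the homologous recombination and Fanconi anaemia list, the CHR and the E2F letters were each in 3 of 26 windows. The windows of 2 called members of each list that hold their list's motif are printed 5′ to 3′, with that motif or its reverse complement in capitals. These members had the smallest edgeR adjusted p among those eligible for printing. Members on 1 chromosome were not eligible, so a member with a smaller edgeR adjusted p may have been passed over. For the CHR they are PLK1 (chr16:23678639-23678938, plus strand) and ANLN (chr7:36389612-36389911, plus strand). For E2F they are LIG1 (chr19:48170295-48170594, minus strand) and CLSPN (chr1:35769929-35770228, minus strand). For the ISRE they are IFITM3 (chr11:320811-321110, minus strand) and IFIT1 (chr10:89392373-89392672, plus strand).
PLK1: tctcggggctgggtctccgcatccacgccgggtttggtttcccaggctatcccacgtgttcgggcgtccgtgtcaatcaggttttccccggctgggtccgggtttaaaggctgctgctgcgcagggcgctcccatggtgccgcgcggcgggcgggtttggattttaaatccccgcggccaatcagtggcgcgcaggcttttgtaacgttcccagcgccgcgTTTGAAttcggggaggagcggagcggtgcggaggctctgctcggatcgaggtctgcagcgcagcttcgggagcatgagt
ANLN: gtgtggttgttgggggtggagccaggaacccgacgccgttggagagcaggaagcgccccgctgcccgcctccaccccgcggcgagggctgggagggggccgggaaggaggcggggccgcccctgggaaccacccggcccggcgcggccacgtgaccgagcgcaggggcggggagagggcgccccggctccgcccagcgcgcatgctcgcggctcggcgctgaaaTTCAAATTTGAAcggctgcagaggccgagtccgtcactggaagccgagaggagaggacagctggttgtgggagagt
LIG1: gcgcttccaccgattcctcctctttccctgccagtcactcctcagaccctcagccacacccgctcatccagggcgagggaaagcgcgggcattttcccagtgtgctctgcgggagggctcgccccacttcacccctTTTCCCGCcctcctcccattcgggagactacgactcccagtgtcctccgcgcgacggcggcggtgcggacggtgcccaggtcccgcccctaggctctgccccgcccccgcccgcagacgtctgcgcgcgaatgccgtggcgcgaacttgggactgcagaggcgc
CLSPN: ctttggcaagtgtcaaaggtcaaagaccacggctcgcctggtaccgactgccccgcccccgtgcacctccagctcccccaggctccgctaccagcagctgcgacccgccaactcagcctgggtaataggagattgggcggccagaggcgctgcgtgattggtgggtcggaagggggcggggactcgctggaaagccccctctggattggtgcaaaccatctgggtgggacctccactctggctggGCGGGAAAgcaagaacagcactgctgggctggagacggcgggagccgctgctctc
IFITM3: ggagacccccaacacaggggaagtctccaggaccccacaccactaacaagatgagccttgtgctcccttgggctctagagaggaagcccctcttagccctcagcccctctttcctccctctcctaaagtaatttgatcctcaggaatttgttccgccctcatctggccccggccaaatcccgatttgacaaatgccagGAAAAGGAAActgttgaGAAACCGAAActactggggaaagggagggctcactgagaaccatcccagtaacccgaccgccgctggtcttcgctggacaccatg
IFIT1: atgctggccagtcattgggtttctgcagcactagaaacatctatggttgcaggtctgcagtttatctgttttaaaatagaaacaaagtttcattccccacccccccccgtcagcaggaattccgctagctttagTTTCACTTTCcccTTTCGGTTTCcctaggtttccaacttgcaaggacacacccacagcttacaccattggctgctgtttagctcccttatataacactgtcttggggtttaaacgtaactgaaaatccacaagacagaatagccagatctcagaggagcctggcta

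The CHR of PLK1, which encodes a mitotic kinase, began 29 bases before the start. ANLN, encoding the cytokinesis protein anillin, had the element on both strands side by side, beginning 26 and 20 bases before the start. The E2F letters of CLSPN, encoding the replication fork adaptor claspin, began 5 bases before the start and those of LIG1 114 bases before it. IFIT1, encoding a binder of foreign RNA, had a pair of ISRE matches beginning 116 and 103 bases before the start, and IFITM3, encoding a membrane protein that blocks virus entry, had a pair at 52 and 35 bases. Over all 11242 tested coding genes with a window the same letters went with small differences: the median log2 fold change was 0.057 for 1133 genes with a CHR and 0.015 for the rest, 0.11 for 411 genes with E2F letters and 0.015 for the rest, and -0.049 for 343 genes with an ISRE and 0.021 for the rest. The printed matches do not overlap each other. A match is a description of letters and does not show binding.

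Repair lists differed in how many of their members rose. Of 30 homologous recombination and Fanconi anaemia genes 23 rose and 2 fell, RAD52 at -0.53 and NBN at -0.15. RAD54L, a recombination motor, had 43.9, 46.4 and 45.1 CPM with guanosine, against 19.8, 18.9 and 18.7 CPM in KO (log2 fold change 1.24 ± 0.038 SE, edgeR adjusted p = 1.54e-14). UBE2T (0.97), FANCI (0.88) and FANCA (1.08), all of the interstrand crosslink pathway, rose. Of 29 checkpoint and end-joining genes 16 rose and 5 fell. POLQ, the polymerase of alternative end joining, had 24.9, 24.8 and 24.9 CPM with guanosine, against 11.8, 11.9 and 10.9 CPM in KO (log2 fold change 1.11 ± 0.042 SE, edgeR adjusted p = 2.69e-13). WEE1, the kinase that restrains CDK1, rose by 0.64 and CDC25A, which opposes it, by 1.04.

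PARP1, the main poly(ADP-ribose) polymerase of the damage response, had 406, 406 and 405 CPM with guanosine, against 281, 263 and 271 CPM in KO (log2 fold change 0.58 ± 0.026 SE, edgeR adjusted p = 2.29e-12), so that each library with guanosine lay above each KO library. KO cells given IMPDH2 had 352 ± 2.53 CPM and WT 251 ± 1.43 CPM, both lower than with guanosine, with log2 differences of 0.21 (edgeR adjusted p = 5.09e-06) and 0.69 (edgeR adjusted p = 9.1e-14). With the length offset the change was 0.87. Over the 25 PARP and ADP-ribosylation genes 7 rose and 7 fell, and with the length offset 4 were lower. PARP16, a PARP of the endoplasmic reticulum, was at 1.01 and PARP6 and PARP3 at -0.33 and -0.32. The last pair lost their calls with the length offset (edgeR adjusted p = 0.0899 and 0.0622), and PARP16 was then at 0.63. In base excision repair 7 of 21 rose and 9 fell, and with the length offset 2 were lower. NEIL3, a glycosylase active in S phase, rose by 1.07 (edgeR adjusted p = 6.56e-12) and UNG, uracil glycosylase, by 0.51 (edgeR adjusted p = 7.95e-12). Of 27 p53 target genes 9 rose and 11 fell. CCNG1 was at 0.44, DDB2 at 0.49, SESN1 at 0.51 and TP53I3 at -0.56, and with the length offset 3 of the list were higher and SESN1 lost its call (edgeR adjusted p = 0.0985).

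Interferon-stimulated genes, the antiviral set that interferon receptors switch on, were mostly lower with guanosine, also when compared with KO cells given IMPDH2. Of 38 genes 30 fell and 3 rose, with a median of -0.64. IFIT1 had 25.4, 26.0 and 24.4 CPM with guanosine, against 76.8, 67.8 and 75.9 CPM in KO (log2 fold change -1.54 ± 0.072 SE, edgeR adjusted p = 4.41e-12). OASL, a 2′-5′-oligoadenylate synthetase-like protein, had 10.7, 11.2 and 11.4 CPM with guanosine, against 35.4, 34.2 and 35.5 CPM in KO (log2 fold change -1.66 ± 0.069 SE, edgeR adjusted p = 9.98e-13). IFITM3 had 214, 206 and 203 CPM with guanosine, against 368, 362 and 388 CPM in KO (log2 fold change -0.84 ± 0.039 SE, edgeR adjusted p = 3.72e-12), and with the length offset it fell by 0.51 on the log2 scale. The groups did not overlap in any of the 3. In WT IFIT1 had 27.8 ± 0.368 CPM, OASL 11.8 ± 1.23 CPM and IFITM3 217 ± 6.92 CPM, and the differences of the cells with guanosine from WT did not pass (edgeR adjusted p = 0.144, 0.336 and 0.187). IFITM3 and its neighbours in the family are close in sequence, so reads could be split between them.

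The 3 genes that rose were OAS3, a 2′-5′-oligoadenylate synthetase (0.62, edgeR adjusted p = 1.93e-11), the transcription factor IRF1 (0.34, edgeR adjusted p = 5.96e-08) and the ubiquitin ligase DTX3L (0.14, edgeR adjusted p = 0.00368). Against KO cells given IMPDH2, 18.6% of all genes were higher and 18.9% lower with guanosine, and of the interferon-stimulated genes 4 were higher and 26 lower, with a median of -0.36. In KO cells given IMPDH2, IFIT1 stood at 113 ± 2.75 CPM and OASL at 46.6 ± 0.407 CPM. The difference of guanosine from these cells was -2.16 on the log2 scale for IFIT1 (edgeR adjusted p = 3.34e-13) and -2.07 for OASL (edgeR adjusted p = 3.34e-13). IFITM3 was at 221 ± 10.4 CPM in KO cells given IMPDH2, a log2 difference of -0.089 that did not pass (edgeR adjusted p = 0.0871). IRF9, the DNA-binding subunit of the interferon-activated complex, had 26.6 ± 1.21 CPM with guanosine, 30.2 ± 0.559 CPM in KO cells given IMPDH2 and 44.2 ± 0.936 CPM in KO.

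**Figure D3:**
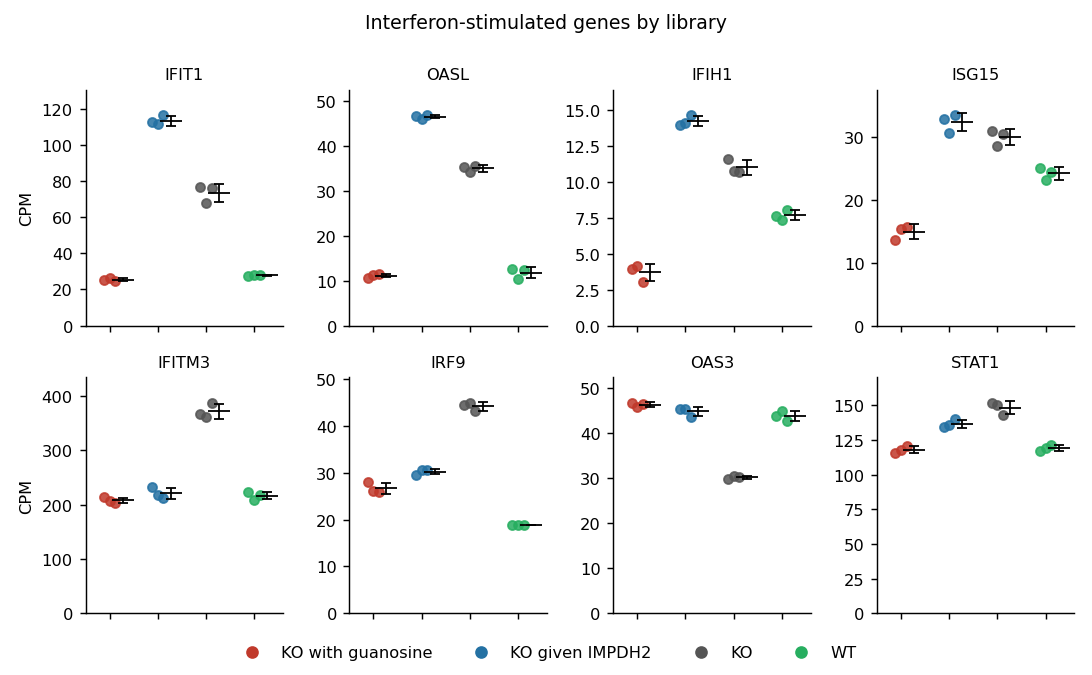
CPM of 8 interferon-stimulated genes in each library (points, left to right KO with guanosine, KO given IMPDH2, KO and WT, vertical axes from 0), with the mean ± SD (n = 3) as black bars. IFIT1, OASL, IFIH1 and ISG15 had their lowest means with guanosine and their highest in KO cells given IMPDH2, IFITM3 and IRF9 had lower means in both than in KO, and OAS3 had its lowest mean in KO.

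Sensors of nucleic acids went in both directions. Of 20 genes 7 rose and 10 fell, and with the length offset 3 were higher. IFIH1, the MDA5 sensor of long double-stranded RNA, had 3.95, 4.13 and 3.04 CPM with guanosine, against 11.6, 10.8 and 10.7 CPM in KO (log2 fold change -1.57 ± 0.1 SE, edgeR adjusted p = 5.24e-10), and DDX60, a helicase linked to the RIG-I-like sensors, had 10.9, 9.31 and 10.51 CPM with guanosine, against 20.6, 20.2 and 20.7 CPM in KO (log2 fold change -1.005 ± 0.058 SE, edgeR adjusted p = 7.01e-11). KO cells given IMPDH2 had 14.3 ± 0.371 CPM of IFIH1 and 34.8 ± 1.25 CPM of DDX60, more than with guanosine (log2 difference -1.94, edgeR adjusted p = 1.78e-10, and -1.77, edgeR adjusted p = 2.23e-13). STING1, the adaptor of cytosolic DNA sensing, fell by 0.68 on the log2 scale and IFI16, a DNA sensor, by 0.59, while CGAS, which makes the messenger that activates STING, rose by 0.24 (edgeR adjusted p = 5.26e-05). TLR9, an endosomal DNA sensor, had 0.318, 0 and 0.258 CPM with guanosine, against 0, 0 and 0 CPM in KO and did not pass (edgeR adjusted p = 0.0828). Of 20 genes of MHC class I presentation 3 rose and 15 fell. HLA-B had 376, 362 and 364 CPM with guanosine, against 539.7, 560.0 and 556 CPM in KO (log2 fold change -0.59 ± 0.038 SE, edgeR adjusted p = 3.18e-10), and HLA genes are uncertain because of shared sequence. PSMB8, an immunoproteasome subunit (-0.48), and CALR (-0.23) fell too.

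Of 31 inflammatory cytokine and chemokine genes 22 fell and 3 rose, with a median of -0.73. TNFAIP3, A20, which restrains NF-kB, had 22.7, 23.1 and 23.2 CPM with guanosine, against 42.8, 42.1 and 42.2 CPM in KO (log2 fold change -0.88 ± 0.032 SE, edgeR adjusted p = 1.25e-13). IL24 had 32.5, 33.9 and 36.4 CPM with guanosine, against 80.8, 76.8 and 76.8 CPM in KO (log2 fold change -1.19 ± 0.051 SE, edgeR adjusted p = 1.23e-12) and CXCL8, the neutrophil chemokine, 15, 15.7 and 16.1 CPM with guanosine, against 36.7, 41.7 and 36.5 CPM in KO (log2 fold change -1.30 ± 0.075 SE, edgeR adjusted p = 7.3e-11). None of the 3 overlapped between the groups. The genes that rose were IL6 (0.33), IL11 (0.32) and TNFAIP2 (0.19), and 1 of the list was higher with the length offset and also without replicate 3 with guanosine. TNFAIP2 overlapped between the groups. In the longer list of blood and endothelial genes, levels fell in 5 of 8 tested cases and rose in 0, among them KDR, the VEGF receptor (-0.82), TIE1 (-0.97), CD14 (-0.88), PECAM1 (-0.61) and LYZ, lysozyme (-1.25). Of the defining genes of blood cells MS4A1 and HBB were at 0 in all 6 libraries, whereas PTPRC, the leukocyte antigen CD45, had 24 counts summed over the 3 libraries with guanosine and 55 over those of KO, HBA1, an alpha globin, had 25 with guanosine and 43 in KO, and CD3E, of T cells, had 1 with guanosine and 0 in KO. The part of such cells in these values was not tested.

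Immediate-early and AP-1 genes, which respond to growth factor signalling, were mostly lower: 5 of 25 rose and 15 fell. EGR1, an immediate-early zinc finger factor, had 22.3, 24.1 and 22.5 CPM with guanosine, against 74.2, 77.8 and 72.9 CPM in KO (log2 fold change -1.70 ± 0.056 SE, edgeR adjusted p = 4.84e-14). FOSL2 had 189.7, 189 and 189 CPM with guanosine, against 107, 110.0 and 106 CPM in KO and rose (log2 fold change 0.81 ± 0.029 SE, edgeR adjusted p = 1.08e-13). FOSL1 (0.62) and the phosphatase DUSP4 (0.55) rose while FOS (-0.96), JUNB (-0.52) and DUSP6 (-0.45) fell. YAP target genes rose in 17 of 22 cases and 3 fell, AMOTL1, CCN2 and AREG. AMOTL2 had 171, 169 and 171 CPM with guanosine, against 101, 97.8 and 102 CPM in KO (log2 fold change 0.77 ± 0.022 SE, edgeR adjusted p = 9.56e-15), F3, tissue factor, rose by 0.91 and CRIM1 by 0.54, whereas CCN2 was at -0.32 and CCN1 (0.073) and ANKRD1 (0.027) did not pass.

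Ribosome-related genes did not move as one group. Of 20 nucleolar GTPase and RNA polymerase I genes 3 rose and 11 fell (median -0.12), and with the length offset 7 were lower. GNL2, a nucleolar GTPase, had 67.1, 67.8 and 68.7 CPM with guanosine, against 97.7, 91.8 and 90.01 CPM in KO (log2 fold change -0.46 ± 0.038 SE, edgeR adjusted p = 1.13e-08) and POLR1B, the second subunit of RNA polymerase I, had 60.6, 61.6 and 62.0 CPM with guanosine, against 86.9, 83.2 and 83.7 CPM in KO (log2 fold change -0.46 ± 0.033 SE, edgeR adjusted p = 1.31e-09). TCOF1, treacle, which binds the polymerase and its factor UBTF, moved the other way with 123, 123 and 121 CPM with guanosine, against 84.1, 85.7 and 86.9 CPM in KO (log2 fold change 0.52 ± 0.025 SE, edgeR adjusted p = 6.32e-12). Of the 30 ribosome biogenesis factors 11 rose and 10 fell, NOP56 at 0.46 and NOP14 at 0.29 against RRP9 at -0.42 and RRP12 at -0.35, and 5 were higher without KO replicate 2, 6 without replicate 1 with guanosine or with the length offset, and 7 without replicate 2 with guanosine. Of 54 cytosolic ribosomal protein genes 19 rose and 22 fell within a range of -0.45 to 0.45, with RPL3 at -0.45, RPL37 at -0.44 and RPSA at 0.44. These genes have many processed copies and their values are uncertain. Of 34 mitochondrial ribosomal protein genes 6 rose and 15 fell, for example MRPL16 at 0.37, MRPS2 at 0.26, MRPS16 at -0.38 and MRPL17 at -0.23.

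Host genes of small nucleolar RNAs were lower in more cases than higher, led by SNHG5 and GAS5. Many of these hosts have short open reading frames and are cleared by translation-coupled decay, and the small RNAs in their introns guide ribosomal RNA modification. SNHG5 had 59.5, 62.1 and 63.6 CPM with guanosine, against 224, 218 and 218 CPM in KO (log2 fold change -1.83 ± 0.039 SE, edgeR adjusted p = 2.2e-16). GAS5 had 83.8, 90.9 and 90.5 CPM with guanosine, against 177, 179.5 and 169.5 CPM in KO (log2 fold change -0.99 ± 0.048 SE, edgeR adjusted p = 5.87e-12). The 3 libraries with guanosine lay below the 3 of KO in both genes. SNHG5 had 124 ± 4.92 CPM in KO cells given IMPDH2 and 160.2 ± 2.77 CPM in WT, and the cells with guanosine were lower than both (log2 difference -1.01, edgeR adjusted p = 2.89e-12, and -1.38, edgeR adjusted p = 2.86e-15). GAS5 had 107 ± 5.24 CPM in KO cells given IMPDH2 and 118 ± 8.29 CPM in WT, and it too was lower with guanosine (log2 difference -0.27, edgeR adjusted p = 0.000199, and -0.42, edgeR adjusted p = 4.77e-07). Of the 26 hosts 8 rose and 14 fell, with a median of -0.21. Against KO cells given IMPDH2, 14 of the 26 were higher and 2 lower with guanosine, and the lower pair was SNHG5 and GAS5. SNHG16 (0.38) and TAF1D, which also encodes a polymerase I factor (0.52), rose.

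**Figure D4:**
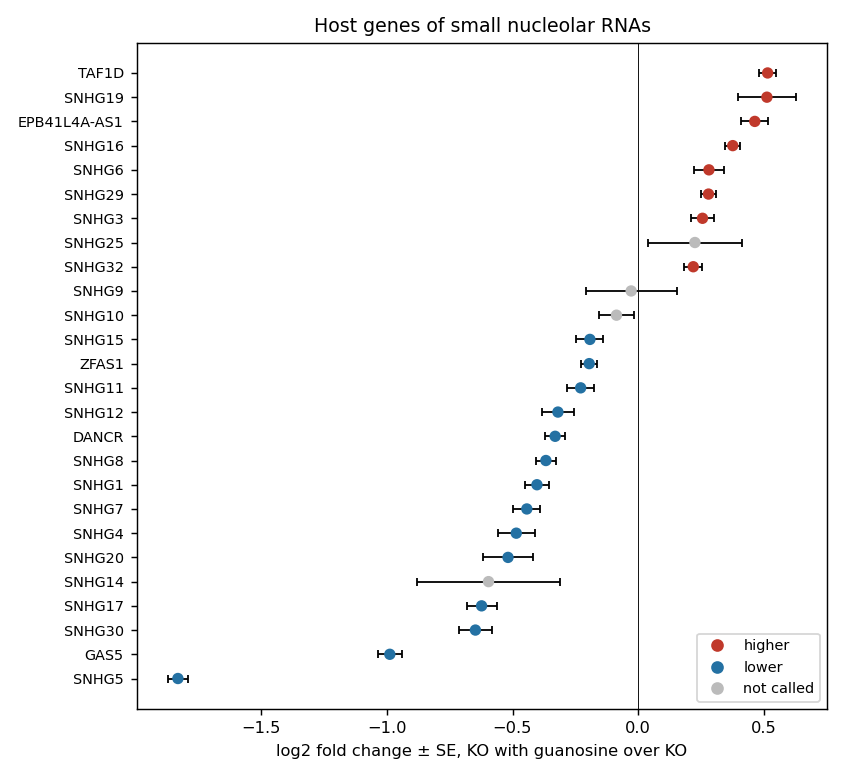
Log2 fold change ± SE of KO with guanosine over KO (horizontal axis) for 26 host genes of small nucleolar RNAs (rows), coloured by the edgeR call. SNHG5 at -1.83 and GAS5 at -0.99 lay lowest, and 8 hosts lay above 0 and were called.

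Long noncoding RNA was lower as a class. Of 3905 tested lncRNA genes 334 rose and 1175 fell, with a median of -0.28. Among all 5252 noncoding genes 8.87% rose and 25.3% fell, against 34.2% and 30.7% of the coding genes. The share of estimated counts from lncRNA transcripts was 1.41% ± 0.023 with guanosine and 1.71% ± 0.010 in KO (exact permutation test, two-sided p = 0.1, the smallest that 3 against 3 libraries allow). The difference was -0.305 percentage points in counts and -0.747 in TPM. KO cells given IMPDH2 had 1.35% ± 0.014 and WT 1.23% ± 0.034. Nuclear protein-coding transcripts took 77.9% ± 0.34 with guanosine and 77.3% ± 0.092 in KO (exact p = 0.1), and retained-intron transcripts 4.41% ± 0.14 with guanosine and 4.54% ± 0.055 in KO (exact p = 0.2). The median log2 fold change also followed the level of a gene, at -0.20 among the 3851 genes with the lowest average and 0.088 among the 3851 with the highest, and the part of level in the lncRNA result was not tested. By the length of the genomic span, the 2790 shortest coding genes had a median of -0.065 and the 2790 longest 0.051.

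**Figure D5:**
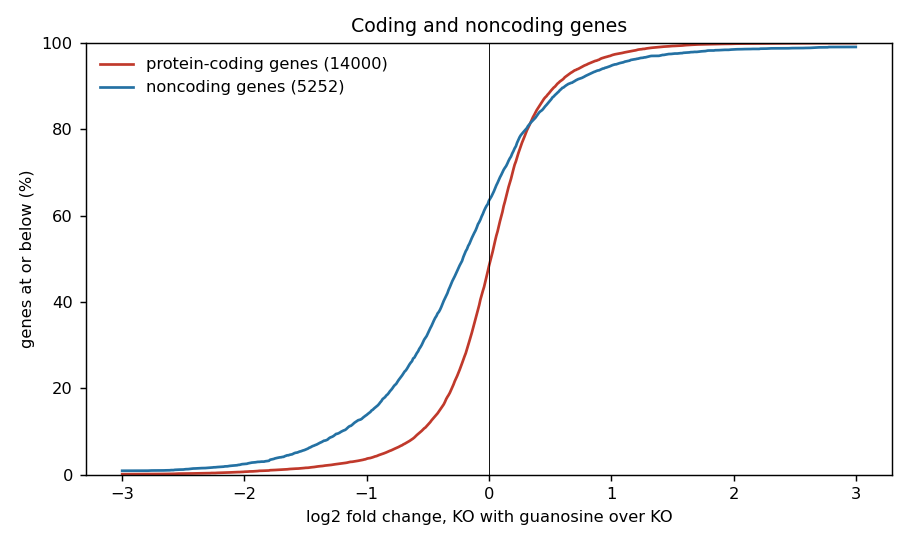
Cumulative share of genes (vertical axis, percent) at or below each log2 fold change of KO with guanosine over KO (horizontal axis) for 14000 coding and 5252 noncoding genes. The noncoding curve lies left of the coding curve below 0, and 25.3% of noncoding genes fell against 8.87% that rose.

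Single noncoding genes with large changes included LINC00520, with 1.78, 2.12 and 1.70 CPM with guanosine, against 13.3, 12.8 and 12.4 CPM in KO (log2 fold change -2.77 ± 0.1 SE, edgeR adjusted p = 2.35e-13), and ZMIZ1-AS1, with 2.99, 3.36 and 3.29 CPM with guanosine, against 13.1, 14.5 and 12.8 CPM in KO (log2 fold change -2.06 ± 0.12 SE, edgeR adjusted p = 1.25e-10). TMPO-AS1, antisense to the lamina gene TMPO, rose, with 12.01, 11.6 and 9.58 CPM with guanosine, against 2.33, 2.47 and 2.67 CPM in KO (log2 fold change 2.15 ± 0.1 SE, edgeR adjusted p = 3.99e-12). PDE7B-AS1 had 4.75, 6.34 and 5.25 CPM with guanosine, against 30.5, 32.2 and 29.6 CPM in KO (log2 fold change -2.49 ± 0.09 SE, edgeR adjusted p = 1.3e-13), while the phosphodiesterase gene PDE7B, which it overlaps on chromosome 6, moved the other way with 6.11, 6.04 and 5.66 CPM with guanosine, against 1.26, 1.503 and 1.46 CPM in KO (log2 fold change 2.08 ± 0.075 SE, edgeR adjusted p = 1.25e-13). WT had 2.11 ± 0.0614 CPM of the antisense and 19.9 ± 0.308 CPM of the sense gene. Libraries were made with a stranded kit, but whether the counting used strand is not given in the sources used here, so reads of sense and antisense partners may be mixed. Several others had libraries at 0. PPP1R14BP3, a pseudogene with 12.9, 13.8 and 15.3 CPM with guanosine, against 0, 0 and 0 CPM in KO, was called at edgeR adjusted p = 0.0499 and lost the call whenever 1 of the 6 libraries was left out (0.0712 to 0.106). ENSG00000285779 had 9.74, 11.2 and 17.4 CPM with guanosine, against 0, 0 and 0 CPM in KO (edgeR adjusted p = 5.05e-07) and the pseudogene SMG1P3 4.84, 8.63 and 5.30 CPM with guanosine, against 1.99, 0 and 0 CPM in KO (edgeR adjusted p = 0.000992). ENSG00000287774 had 1.04, 1.35 and 1.40 CPM with guanosine, against 7.13, 7.86 and 6.79 CPM in KO (log2 fold change -2.52 ± 0.13 SE, edgeR adjusted p = 1.42e-11). The calls of ENSG00000187951 (edgeR adjusted p = 0.0377) and ENSG00000125695 (edgeR adjusted p = 0.0483) were lost without most single libraries of either group (0.085 to 0.116 and 0.0615 to 0.147). Pseudogenes can share reads with their parent genes, so these values are uncertain.

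Lysosomal and autophagy genes were lower as a group, with 21 of 32 falling, 3 rising and a median of -0.24. NEU1, lysosomal sialidase, had 120.2, 118 and 116 CPM with guanosine, against 215, 215 and 215 CPM in KO (log2 fold change -0.87 ± 0.026 SE, edgeR adjusted p = 1.54e-14). GAA, acid alpha-glucosidase, had 39.6, 38.9 and 39.5 CPM with guanosine, against 81.8, 84.4 and 86.5 CPM in KO (log2 fold change -1.1 ± 0.045 SE, edgeR adjusted p = 6.4e-13), and SQSTM1, the autophagy receptor p62, had 566, 566 and 562 CPM with guanosine, against 894, 916 and 935 CPM in KO (log2 fold change -0.70 ± 0.025 SE, edgeR adjusted p = 1.08e-13). For all of these the KO libraries were the high ones. HEXA, hexosaminidase A, fell by 0.58 on the log2 scale. The genes that rose were GUSB (0.48), CTSF (0.44) and ATP6V0D1 (0.089). Against KO cells given IMPDH2 21 of the 32 were lower and 2 higher with guanosine, with a median of -0.19.

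Stress and growth pathways gave mixed lists. In the mTORC1 pathway 12 of 29 rose and 11 fell, 6 in each direction with the length offset, with RHEB, the GTPase that activates mTORC1, at 0.37, EIF4EBP2 at 0.40, the mTOR inhibitor DEPTOR at -1.13 and LAMTOR1 of the lysosomal anchor at -0.54. In the ATF4 response 9 of 25 rose and 10 fell: DDIT3, CHOP, had 17.5, 16.7 and 17.2 CPM with guanosine, against 42.5, 40.0 and 38.9 CPM in KO (log2 fold change -1.24 ± 0.059 SE, edgeR adjusted p = 4.85e-12), SLC3A2 was at -0.43 and SLC7A1, the cationic amino acid transporter, at 0.37. KO cells given IMPDH2 had 16.4 ± 1.36 CPM of DDIT3, a log2 difference of 0.065 that did not pass (edgeR adjusted p = 0.447). In the unfolded protein response 4 of 20 rose and 11 fell, with HSPA5, the chaperone BiP, at -0.56, ERN1, the sensor IRE1, at -0.87 and HERPUD1 at -0.53. Of 20 aminoacyl-tRNA synthetases 6 rose and 9 fell, among them WARS1 (-0.42), LARS1 (-0.36), AARS1 (-0.29) and MARS1 (0.33, edgeR adjusted p = 0.521 with the length offset).

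Of 24 NRF2, glutathione and pentose phosphate genes 12 rose and 5 fell. The summed level of the list was lower with guanosine, at 5191 to 5302 CPM against 5592 to 5857 CPM in KO. NQO1, a quinone reductase, had 186, 176 and 190.2 CPM with guanosine, against 94.0, 99.9 and 90.1 CPM in KO (log2 fold change 0.96 ± 0.049 SE, edgeR adjusted p = 1.37e-11). TXNRD1, thioredoxin reductase, rose by 0.70 and TKT, transketolase, by 0.40. Sterol and fatty acid synthesis was higher in 28 of 33 genes, and 2 fell, TM7SF2 at -0.79 and PMVK at -0.42. EBP, a sterol isomerase, had 37.2, 37.9 and 35.3 CPM with guanosine, against 19.5, 20.6 and 20.04 CPM in KO (log2 fold change 0.88 ± 0.037 SE, edgeR adjusted p = 1.26e-12), and FDPS (0.63) and FADS2 (0.67) rose. Against WT 27 of the 33 were lower with guanosine and 3 higher, beside 32.9% and 31.1% of all genes.

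Glycolysis and hypoxia genes went in both directions, 15 of 30 higher and 13 lower, 8 lower with the length offset. ENO1, enolase, had 1220, 1220 and 1239 CPM with guanosine, against 876, 869 and 859 CPM in KO (log2 fold change 0.50 ± 0.021 SE, edgeR adjusted p = 1.02e-12) and PFKP, phosphofructokinase, rose by 0.66. GAPDH, often taken as a constant gene, had 2349, 2405 and 2393 CPM with guanosine, against 3981, 3804 and 3903 CPM in KO (log2 fold change -0.71 ± 0.024 SE, edgeR adjusted p = 7.23e-14). It has many processed pseudogenes, so its value is uncertain. SLC2A3, a glucose transporter, was at -0.71. Of 13 mitochondrially encoded genes 10 rose and 1 fell, MT-CO1, a call that was lost with DESeq2 size factors and without any of the 3 KO libraries or replicate 2 with guanosine. MT-ND2 was at 0.39, MT-CO3 at 0.30, MT-ND4 at 0.26 and MT-CO2 at 0.21. The 13 genes summed to 66730 to 73850 CPM with guanosine and 61600 to 64180 CPM in KO. The mitochondrially encoded share of counts covers every transcript of a gene named MT-, not only these 13, and uses totals without TMM scaling. This share was 7.83% ± 0.37 with guanosine and 7.73% ± 0.17 in KO (exact permutation p = 0.8). KO cells given IMPDH2 had 7.41% ± 0.19 and WT 5.18% ± 0.026. All 13 were higher with guanosine than in WT, beside 31.1% of all genes, and each KO library without guanosine also had a larger mitochondrially encoded share than each of WT. Of 35 nuclear-encoded respiratory chain genes 7 rose and 13 fell: SDHA, of succinate dehydrogenase, had 195, 192 and 196 CPM with guanosine, against 119, 117 and 119 CPM in KO (log2 fold change 0.71 ± 0.025 SE, edgeR adjusted p = 1.07e-13), against COX6B1 at -0.47 and NDUFA4 at -0.36.

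SR splicing factors and their kinases rose in 14 of 17 cases, with SRSF8 (-0.33) and CLK4 (-0.16) falling, 1 of them without KO replicate 2 or replicate 2 with guanosine. SRSF7 had 182, 188 and 185 CPM with guanosine, against 119, 117 and 115 CPM in KO (log2 fold change 0.66 ± 0.029 SE, edgeR adjusted p = 1.69e-12), and SRSF1 (0.55), TRA2B (0.51) and SRSF3 (0.45) rose. In the BCL2 family 8 of 16 rose and 6 fell, with the inhibitors of apoptosis BCL2 at 0.67 and BCL2L1 at 0.26, the sensitiser BAD at 0.25 (0.72 with the length offset) and BCL2L13 at -0.62. Serpins, protease inhibitors, fell in 7 of 14 cases and rose in 3. SERPINE2 was at -0.59 and SERPINB1 at -0.64, and SERPIND1 had 2.44, 2.59 and 2.304 CPM with guanosine, against 18.2, 19.5 and 17.6 CPM in KO.

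Matrix and adhesion genes were divided. Of 21 collagens 8 rose and 7 fell: COL8A1 had 69.5, 68.1 and 67.7 CPM with guanosine, against 30.6, 31.9 and 31.8 CPM in KO (log2 fold change 1.123 ± 0.041 SE, edgeR adjusted p = 1.72e-13), COL4A2 was at 0.81 (1.39 with the length offset) and COL13A1 at 0.48, while COL6A3 had 1.78, 1.31 and 1.57 CPM with guanosine, against 6.86, 7.72 and 6.76 CPM in KO (log2 fold change -2.19 ± 0.11 SE, edgeR adjusted p = 8.97e-12). Of 26 integrins and laminins 11 rose and 9 fell. ITGB1, the common beta chain, had 1293, 1314 and 1290 CPM with guanosine, against 853, 879 and 836 CPM in KO (log2 fold change 0.60 ± 0.029 SE, edgeR adjusted p = 6.32e-12). LAMA1 had 6.94, 6.87 and 6.74 CPM with guanosine, against 24.4, 26.4 and 23.4 CPM in KO (log2 fold change -1.85 ± 0.082 SE, edgeR adjusted p = 2.22e-12), and LAMB1 (-0.56) fell. Of 15 tested genes of mesenchymal lines 8 rose and 1 fell, and with the length offset 5 were higher and 2 lower: AXL was at 0.56, CAV1 at 0.64, CAV2 at 0.29 and FN1 at -0.56. Of 12 luminal and epithelial genes 8 rose and 1 fell, CLDN7 at -0.60, and KRT18, a simple epithelial keratin, had 242, 238 and 233 CPM with guanosine, against 114, 116 and 109 CPM in KO (log2 fold change 1.07 ± 0.033 SE, edgeR adjusted p = 1.73e-14). CLDN4 was at 0.81.

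Among coding genes without overlap whose average log2 CPM reached 1, the largest rises were those of NEGR1, B4GALNT1, DMBT1, PDE7B, MALL, CDCA3, REEP1, ANK1, PLK1, DLGAP5, KIF20A, EVL, BIRC5, IQGAP3 and RAB15, with log2 fold changes of 2.35 to 1.62. Of these PLK1, DLGAP5, KIF20A, BIRC5, CDCA3 and IQGAP3 are genes of mitosis or cytokinesis. REEP1, which shapes the endoplasmic reticulum, had 7.89, 9.42 and 8.70 CPM with guanosine, against 2.44, 2.77 and 2.64 CPM in KO (log2 fold change 1.73 ± 0.1 SE, edgeR adjusted p = 1.15e-10). RAB15, a GTPase of endocytic recycling, had 20.6, 20.1 and 22.1 CPM with guanosine, against 6.38, 7.28 and 6.79 CPM in KO (log2 fold change 1.62 ± 0.065 SE, edgeR adjusted p = 5.13e-13). RAB15 with guanosine was also above WT at 8.21 ± 0.307 CPM (log2 difference 1.35, edgeR adjusted p = 2.32e-12) and above KO cells given IMPDH2 at 9.98 ± 0.354 CPM (log2 difference 1.07, edgeR adjusted p = 5.37e-10). DMBT1, a scavenger receptor of mucosal surfaces, had 14.5 ± 0.499 CPM with guanosine, 3.75 ± 0.301 CPM in KO cells given IMPDH2 and 3.08 ± 0.045 CPM in KO, and its log2 fold change over KO was 2.24, or 3.77 with the length offset. IQGAP3, a scaffold of the cytokinetic machinery, had 113 ± 3.61 CPM with guanosine and 36.7 ± 1.78 CPM in KO, and EVL, an actin regulator of the Ena/VASP family, had 9.61, 11.1 and 10.8 CPM with guanosine, against 3.07, 3.43 and 3.48 CPM in KO. ANK1, ankyrin 1, which links membrane proteins to spectrin, had 6.62 ± 0.425 CPM with guanosine and 2.03 ± 0.306 CPM in KO. MALL, a raft protein of the MAL family, had 3.32 ± 0.317 CPM with guanosine and 0.948 ± 0.247 CPM in KO.

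The largest falls by the same rule were those of SERPIND1, IL2RG, PTPRR, ADGRF4, PTGS2, GCKR, COL6A3, PIWIL2, CST1, IL1A, VNN1, EYS, KCP, NTNG2 and TRPV2, with log2 fold changes of -2.91 to -1.99. CST1, a secreted cysteine protease inhibitor, had 61.8, 52.7 and 57.9 CPM with guanosine, against 212, 279 and 252 CPM in KO (log2 fold change -2.11 ± 0.14 SE, edgeR adjusted p = 7.05e-10). TRPV2, a cation channel, had 5.64, 5.69 and 5.73 CPM with guanosine, against 21.2, 23.5 and 23.0 CPM in KO (log2 fold change -1.99 ± 0.094 SE, edgeR adjusted p = 4.85e-12). IL1A, an alarmin cytokine, had 1.34, 1.18 and 0.904 CPM with guanosine, against 4.83, 5.74 and 4.02 CPM in KO (log2 fold change -2.09 ± 0.16 SE, edgeR adjusted p = 2.51e-09). The libraries with guanosine were the low ones in each. PTPRR, a tyrosine phosphatase that acts on MAP kinases, had 2.15 ± 0.269 CPM with guanosine and 11.7 ± 0.45 CPM in KO, IL2RG, the common gamma chain of cytokine receptors, 2.52 ± 0.0555 CPM with guanosine and 16.4 ± 0.219 CPM in KO, and VNN1, pantetheinase, 1.21 ± 0.155 CPM with guanosine and 5.16 ± 0.729 CPM in KO. GCKR, the regulator of glucokinase, had 0.865 ± 0.275 CPM with guanosine and 4.19 ± 0.274 CPM in KO, and NTNG2, a netrin of the neuronal surface, 2.47 ± 0.386 CPM with guanosine and 9.93 ± 1.27 CPM in KO. CST1 with guanosine was also below WT at 193 ± 33.0 CPM (log2 difference -1.75, edgeR adjusted p = 5.09e-09), whereas TRPV2 was above the 3.89 ± 0.775 CPM of WT (log2 difference 0.54, edgeR adjusted p = 0.00017). IL1A stood at 4.93 ± 0.527 CPM in KO cells given IMPDH2, a log2 difference of -2.11 (edgeR adjusted p = 1e-08).

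Guanosine and the returned enzyme were set against each other directly. Between KO with guanosine and KO given IMPDH2, 3582 genes (18.6%) were higher and 3648 (18.9%) lower with guanosine, and 233 (1.21%) were at least 2-fold higher and 294 (1.53%) at least 2-fold lower. With the length offset the counts were 1962 higher and 2183 lower. Cell cycle lists were higher with guanosine: 33 of 35 G2/M genes were higher and 1 lower (median 0.34), and 26 of 35 replication genes were higher and 0 lower (median 0.20). CCNA2 had 122 ± 3.46 CPM with guanosine and 81.8 ± 1.42 CPM in KO given IMPDH2 (log2 difference 0.58, edgeR adjusted p = 9.37e-11). MCM5, a helicase subunit, had 101 ± 1.45 CPM with guanosine and 98.4 ± 2.91 CPM in KO given IMPDH2 (log2 difference 0.039, edgeR adjusted p = 0.218), which did not pass. Of the NRF2 and pentose phosphate genes 1 of 24 was higher and 18 lower with guanosine, and of sterol and fatty acid genes 20 of 33 were higher and 1 lower.

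Against WT, 5978 genes (31.1%) were higher and 6329 (32.9%) lower with guanosine. Of the G2/M genes 2 of 35 were higher than in WT and 24 lower, with a median of -0.20, whereas 24 of 35 replication genes were higher and 4 lower, with a median of 0.23. Of the interferon-stimulated genes 16 of 38 were higher and 14 lower than in WT (median -0.039). BIRC5 had 149 ± 1.41 CPM with guanosine and 152 ± 1.73 CPM in WT (log2 difference -0.030, edgeR adjusted p = 0.22), which did not pass. The mitotic kinase gene PLK1 had 111 ± 1.103 CPM with guanosine and 149.9 ± 2.93 CPM in WT (log2 difference -0.44, edgeR adjusted p = 5.35e-11). KO without guanosine had 48.2 ± 1.06 CPM of BIRC5 and 34.1 ± 0.172 CPM of PLK1. KO with guanosine and WT differ by the knockout as well as by guanosine. Any other difference between the knockout line and WT, such as that of a clone, cannot be told apart from the knockout in comparisons with WT.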

How the data were processed

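Poly(A) RNA of 18 libraries was sequenced with a stranded kit, per the labels' protocols. Trim Galore 0.6.10, Salmon 1.10.0 and hg19 are named, without an order, in the submitters' processing notes. The authors deposited estimated counts and TPM (length-corrected) per transcript, and 32.5% of the estimated counts are not whole. Counts of 252048 transcripts were summed to 62749 genes and rounded. The 19252 genes kept by filterByExpr were fitted with edgeR 4.0.16 (R 4.3.3): TMM scaling, 1 mean per group over all 18 libraries, quasi-likelihood tests and Benjamini-Hochberg adjustment at 0.05. DESeq2 1.42.0 served as an alternative. Shares of transcript classes were compared by exact permutation. Named genes were IMPDH2, IMPDH1 and PARP1, every tested member of the guanine branch and salvage lists, up to 4 members of each other list by smallest adjusted p, and the largest changes without overlap (15 coding and 5 noncoding in each direction, average log2 CPM of at least 1); some genes this rule picks are not reported here. Members and lists were chosen with earlier results of these data known. Same-numbered libraries did not deviate together (correlations of 0.0055, -0.0091 and -0.059), so they were not paired. Names matched for 62231 gene IDs. The fit was checked on simulated data in which few genes changed, so the check does not cover a contrast with 56.5% of genes called. Totals ranged from 45865079 to 63276484 counts per library, and floors for 0 counts cover counting error only.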

Additional observations from a re-analysis of the deposited data

How the results depend on the processing

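Of the genes called, 5256 were higher and 5626 lower with guanosine. The order of these counts changed when DESeq2 size factors replaced TMM (5510 higher, 5339 lower), and with the DESeq2 Wald test (5326 and 5062), no filter (5515 and 5198) and a fit of the 6 libraries alone (5411 and 5255). Genes at least 2-fold higher numbered 756 without the filter and 314 in a separate fit of coding genes alone. Tested against a log2 fold change of 1, 140 of all genes were higher. Genes at least 2-fold lower numbered 477 in the fit of coding genes, and 253 of all genes were lower against a log2 fold change of 1. The offset for transcript length gave 3812 higher and 4204 lower genes against KO. Against KO given IMPDH2 it gave 1962 higher and 2183 lower genes. With that offset the lower members also numbered 1 in each of the pyrimidine, one-carbon and recombination lists. GMPR2 turned to 0.0722 (edgeR adjusted p = 0.769). The difference in lncRNA share was -0.329 percentage points without mitochondrially encoded genes and -0.747 in TPM, and that of the mitochondrially encoded share was 1.07 in TPM. The causes were not tested.

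Leaving out 1 library at a time gave 4839 to 5060 higher and 5082 to 5339 lower genes, and 444 to 507 and 956 to 1032 at least 2-fold. A replicate block, where the numbers do not pair the libraries, gave 5230 higher and 5569 lower genes. For IMPDH2 the log2 fold change ranged from -0.92 to -0.90 and for PARP1 from 0.56 to 0.61 over single libraries left out.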
